A study of Mus musculus with 6 samples.

Results

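The 39 mouse Hox cluster genes were read in forelimb bud ectoderm at E10.5 from embryos with and without Sp8, a transcription factor with zinc fingers that is active in limb ectoderm. Members were the rows of the expression table whose symbol is Hoxa, Hoxb, Hoxc or Hoxd followed by a number. This gave 39 of 49452 genes: 11 of HoxA on chromosome 6, 10 of HoxB on chromosome 11, 9 of HoxC on chromosome 15 and 9 of HoxD on chromosome 2. RNA came from 3 Sp8 null and 3 wild-type embryos. The wild-type embryos were from crosses between C57BL/6 inbred mice. The null embryos were from crosses between heterozygous carriers of the Sp8-Cre-ERT2 allele, an allele named for a tamoxifen-dependent recombinase that the labels name for the null group alone, with no mention of tamoxifen. The labels give C57BL6J as the strain of both groups. Each library held the ectoderm of both forelimbs of 1 embryo, stripped from the bud with forceps after trypsin, and was made from polyadenylated RNA.

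Hox genes encode transcription factors that bind DNA through a homeodomain and give cells their position along the body axis. Genes of the same paralogue number in different clusters descend from 1 ancestral gene, and within a cluster the order on the chromosome follows the order of use. Low numbers, at the 3′ end, act early and toward the head. High numbers, at the 5′ end, act late and toward the tail and the tips of limbs. In the limb bud the 5′ genes of HoxA and HoxD are known for patterning the mesenchyme, the connective tissue core under the ectoderm. Hoxc13, at the 5′ end of HoxC, is known for its role in hair and nails, which are ectodermal.

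The 3 members with a change past the test were Hoxc9, Hoxc10 and Hoxc13, all from the 5′ part of HoxC. Their homeoboxes, the DNA that encodes the homeodomain, are shown because this is the stretch where related copies in other clusters could share reads with them. Each is on the plus strand of GRCm38, in the last exon, 5′ to 3′, with capitals at the bases that differ from the HoxA gene of the same number.
Hoxc9: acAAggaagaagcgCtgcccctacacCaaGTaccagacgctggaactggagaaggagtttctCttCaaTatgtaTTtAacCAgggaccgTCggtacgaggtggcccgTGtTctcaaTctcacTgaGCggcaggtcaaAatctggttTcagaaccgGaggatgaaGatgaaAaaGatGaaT
Hoxc10: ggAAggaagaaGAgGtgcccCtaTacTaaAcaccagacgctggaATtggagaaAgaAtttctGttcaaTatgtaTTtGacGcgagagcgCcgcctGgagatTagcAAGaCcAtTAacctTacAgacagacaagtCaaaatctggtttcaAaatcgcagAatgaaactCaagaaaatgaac
Hoxc13: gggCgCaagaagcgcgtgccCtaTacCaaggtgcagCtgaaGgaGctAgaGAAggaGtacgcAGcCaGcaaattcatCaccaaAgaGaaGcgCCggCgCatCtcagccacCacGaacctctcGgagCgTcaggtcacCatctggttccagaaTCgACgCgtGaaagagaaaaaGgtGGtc
The Hoxc9 homeobox lies at chr15:102983930-102984109 in exon 3 of 3, that of Hoxc10 at chr15:102970848-102971027 in exon 2 of 2, and that of Hoxc13 at chr15:102927210-102927389 in exon 2 of 2. Each is 180 bases long. Identity to the HoxA paralogue was 82.8% for Hoxc9, 80.6% for Hoxc10 and 77.2% for Hoxc13, and to the HoxD paralogue 82.8%, 82.8% and 75.0%. The longest run of identical bases shared with a HoxA or HoxD paralogue anywhere in the transcript was 31, between Hoxc9 and Hoxa9, and at most 17 for the other pairs.

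Values are FPKM, fragments scaled to transcript length and library size, so levels of different genes are compared per length. Sp8 was 0.766, 0.460 and 1.14 FPKM in null embryos 1, 2 and 3 and 8.35, 10.97 and 13.5 FPKM in wild-type embryos 1, 2 and 3, so each library followed its label. Relative depth was between 0.844 and 1.03 of that of wild-type embryo 1, and 11835 to 12245 genes per library reached 1 FPKM. All 15 surface ectoderm markers were detected in every library, with summed levels of 960 to 1240 FPKM in null and 1168 to 1294 FPKM in wild type. Of them Tfap2a was called higher and Epcam lower in null, and at an unadjusted p under 0.05 there were 2 higher and 5 lower; their part in the Hox values was not tested. All 15 limb mesenchyme markers were detected in every library too. Of the 11 tested, limma called 1 higher in null, and at an unadjusted p under 0.05 there were 3 higher and 1 lower. Their median log2 fold change was 1.07. The summed level of the 15 mesenchyme markers set 2 libraries apart. It was 238 FPKM in null embryo 2, against 73.8 and 69.2 FPKM in null embryos 1 and 3, and 99.2 FPKM in wild-type embryo 1, while wild-type embryos 2 and 3 had 48.2 and 74.9 FPKM. The HoxC changes and the 5′ HoxA and HoxD values are given with and without these libraries. Erythroid markers were also highest in wild-type embryo 1, at 427 FPKM, against 11.7 to 36.6 FPKM in the other wild-type and 62.6 to 163 FPKM in the null embryos. Summed markers ran over the libraries from 2.23 to 4.61 FPKM for endothelium, 1.41 to 4.22 for macrophages, 9.55 to 11.9 for neural crest and nerve, and 7.27 to 24.7 for muscle precursors and somite, the last highest in null embryo 2. The neural crest and muscle sums rested on few genes. Erbb3 had 8.34 to 10.4 FPKM, while Sox10 had at most 0.102 FPKM. Meox2 had 21.8 FPKM in null embryo 2, where Pax3 had 0.472 FPKM. The labels do not say that embryos came from separate litters. The limma p-values set each genotype difference against the spread among embryos of the same genotype. Parentage, as the labels give it, changed with genotype in all 6 libraries, so their effects cannot be told apart. The part of parentage or litter in the differences was not tested.

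HoxC supplied the largest share of Hox FPKM in each of the 6 libraries. In wild type, Hoxc8 (chr15:102990607-102994111) was the highest member, at 25.9, 30.2 and 30.1 FPKM in embryos 1, 2 and 3 (28.8 ± 2.45, SD, n = 3). Hoxc6 followed at 11.3, 13.6 and 11.4 FPKM (12.1 ± 1.31, SD, n = 3), with no overlap with Hoxc8 above it or with Hoxc5 below it. From Hoxc5, at 5.78 ± 2.01 FPKM (SD, n = 3), to the next members in the order, Hoxc10 (3.53), Hoxc4 (3.01), Hoxd11 (2.52), Hoxc13 (2.49) and Hoxa11 (2.49 FPKM), each member's range overlapped that of its neighbour. The 9 HoxC genes supplied 56.0%, 79.9% and 72.9% of the summed Hox FPKM in wild-type embryos 1, 2 and 3. In the null embryos this share was 65.9%, 37.3% and 67.8%. The share was lowest in null embryo 2 and, within wild type, in embryo 1, where HoxA and HoxD were high. The HoxC sum was also lowest in these libraries. It was 34.7 FPKM in null embryo 2 against 49.7 and 46.9 FPKM in null embryos 1 and 3. In wild-type embryos 1, 2 and 3 it was 54.8, 58.7 and 60.3 FPKM.

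Most other members were scarce. Of the 39 genes, 14 stayed under 1 FPKM in every library and 5 reached 1 FPKM in all 6 with Hoxc4, Hoxc5, Hoxc6 and Hoxc8 among them. Hoxb13 was listed at 0 in every library. HoxB, with 10 genes, summed to 4.34, 4.90 and 3.56 FPKM in wild-type embryos 1, 2 and 3 and was led by Hoxb5, at 1.22 ± 0.262 FPKM (SD, n = 3). The filter for testing, at least 1 FPKM in at least 3 libraries, kept 20 members: 6 of HoxA, 2 of HoxB, 7 of HoxC and 5 of HoxD.

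**Figure D1:**
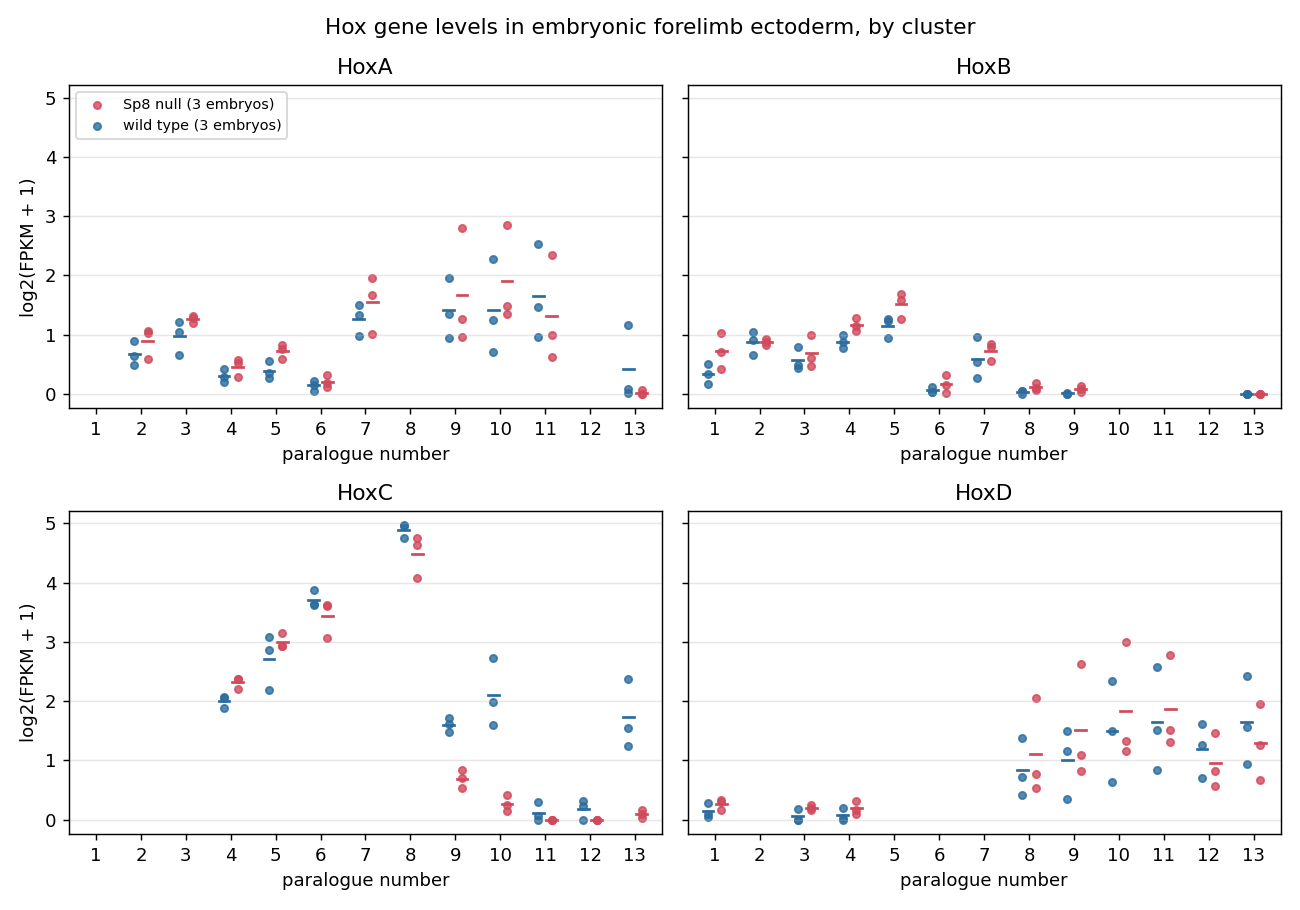
Level of Hox genes by cluster and paralogue number, as log2(FPKM + 1), with 1 point per embryo and a bar at the mean of each genotype (3 Sp8 null and 3 wild-type embryos). HoxC reaches the highest values, up to 30.2 FPKM for Hoxc8, the null and wild-type points separate for Hoxc9, Hoxc10 and Hoxc13, and the points of HoxA and HoxD from 9 upward are spread widely within each genotype.

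The clearest difference between the genotypes was the fall of Hoxc9, Hoxc10 and Hoxc13 in Sp8 null ectoderm. Of the 20 tested members 3 were called lower and 0 higher (limma, Benjamini-Hochberg adjusted p under 0.05 over 12133 genes). Among all tested genes 5.15% were called lower, 1.68% higher and 6.83% in either direction, 829 in all. That total fell to 394 without null embryo 1, 408 without null embryo 2, and 445, 316 and 510 without wild-type embryos 1, 2 and 3. Of the calls 204 of 829 were higher in null, against 323 of 864 with median-of-ratios and 363 of 864 with upper-quartile scaling. Unadjusted p was under 0.05 for 7 members, among them Hoxb5, Hoxc4 and Hoxc8 beside the 3 called genes, against 24% of all tested genes. The 3 called genes reached 1 FPKM in wild-type libraries alone, so they could pass the filter only by being higher there. Their number among the tested members is therefore a description.

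Hoxc10 (ENSMUSG00000022484; chr15:102966796-102971893), known as a posterior gene of trunk and hindlimb, had the largest change of the tested members on the log2(FPKM + 1) scale. It was listed at 2.97, 2.04 and 5.60 FPKM in wild-type embryos 1, 2 and 3 and at 0.179, 0.108 and 0.335 FPKM in null embryos 1, 2 and 3. The lowest wild-type embryo lay far above the highest null embryo. The wild-type mean of 3.53 ± 1.85 FPKM (SD, n = 3) was 17.0 times the null mean of 0.207 ± 0.116 FPKM (SD, n = 3). On that scale, which understates changes of low genes, the log2 fold change was -1.84 (SE 0.27, with an adjusted p of 0.00903 in limma). Hoxc10 shares 166 bases of exon with Hoxc5 on the same strand, 8.70% of its exon length, and Hoxc5 was not called.

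Hoxc13 (ENSMUSG00000001655; chr15:102921103-102928814), the last gene of the cluster, was nearly undetected in null ectoderm. Wild-type embryos 1, 2 and 3 had 1.92, 1.37 and 4.20 FPKM, and null embryos 1, 2 and 3 had 0.0614, 0.0205 and 0.111 FPKM. Every null value lay far below the lowest wild-type value, and wild-type embryo 3 was the highest for Hoxc13 as it was for Hoxc10. The means were 2.49 ± 1.5 and 0.0645 ± 0.0456 FPKM (SD, n = 3 each), a ratio of 38.7 that rests on null values near 0, and the log2 fold change was -1.63 (SE 0.27, with an adjusted p of 0.0152 in limma). Without null embryo 1 or null embryo 2 it missed the threshold, with unchanged size (log2 fold change -1.63 and -1.60; adjusted p = 0.0585 and 0.0505 in limma).

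Hoxc9 (ENSMUSG00000036139; chr15:102976439-102985099), next to Hoxc10 on its 3′ side, fell less far. It had 1.80, 2.05 and 2.27 FPKM in wild-type embryos 1, 2 and 3 and 0.626, 0.447 and 0.791 FPKM in null embryos 1, 2 and 3. The groups were tight and apart, at 2.04 ± 0.237 and 0.621 ± 0.172 FPKM (SD, n = 3 each), a ratio of means of 3.28. The log2 fold change was -0.91 (SE 0.13, with an adjusted p of 0.00829 in limma). With no filter on low values the 3 fold changes were the same, Hoxc9 lay at the threshold, and Hoxc10 and Hoxc13 were no longer called (adjusted p = 0.04996, 0.0620 and 0.0786 in limma). With no filter and a pseudocount of 0.1, a setting chosen after seeing the data, the log2 fold changes of Hoxc9, Hoxc10 and Hoxc13 were -1.59, -3.51 and -3.87 (adjusted p = 0.0441, 0.0300 and 0.0264 in limma).

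Hoxc11 and Hoxc12, which lie between Hoxc10 and Hoxc13, were close to the limit of detection and missed the filter for testing. Hoxc11 (chr15:102954427-102957708) was listed at 0 in the 3 null embryos and at 0.0385, 0 and 0.224 FPKM in wild-type embryos 1, 2 and 3. Hoxc12 (chr15:102936757-102938609) was listed at 0 in the 3 null embryos and at 0.169, 0 and 0.244 FPKM in wild-type embryos 1, 2 and 3. Wild-type embryo 3 again held the highest value of each. Summed over Hoxc9 to Hoxc13, the level was 6.89, 5.45 and 12.5 FPKM in wild-type embryos 1, 2 and 3 and 0.866, 0.576 and 1.24 FPKM in null embryos 1, 2 and 3. Hotair, the noncoding RNA transcribed between Hoxc11 and Hoxc12, was listed at 0 in the null embryos and at 0.0259, 0.0290 and 0.0501 FPKM in wild type.

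The authors' deposited table gave the same direction on its own scale of group means. In it Hoxc9 went from a wild-type mean of 183.36 to a null mean of 55.86, Hoxc10 from 238.81 to 14.3, and Hoxc13 from 236.94 to 6.01. The fold changes in the authors' deposited table were -2.62, -2.61 and -2.19, with p listed at 0 for each. They lie nearer to 1 than the ratios of the deposited means.

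**Figure D2:**
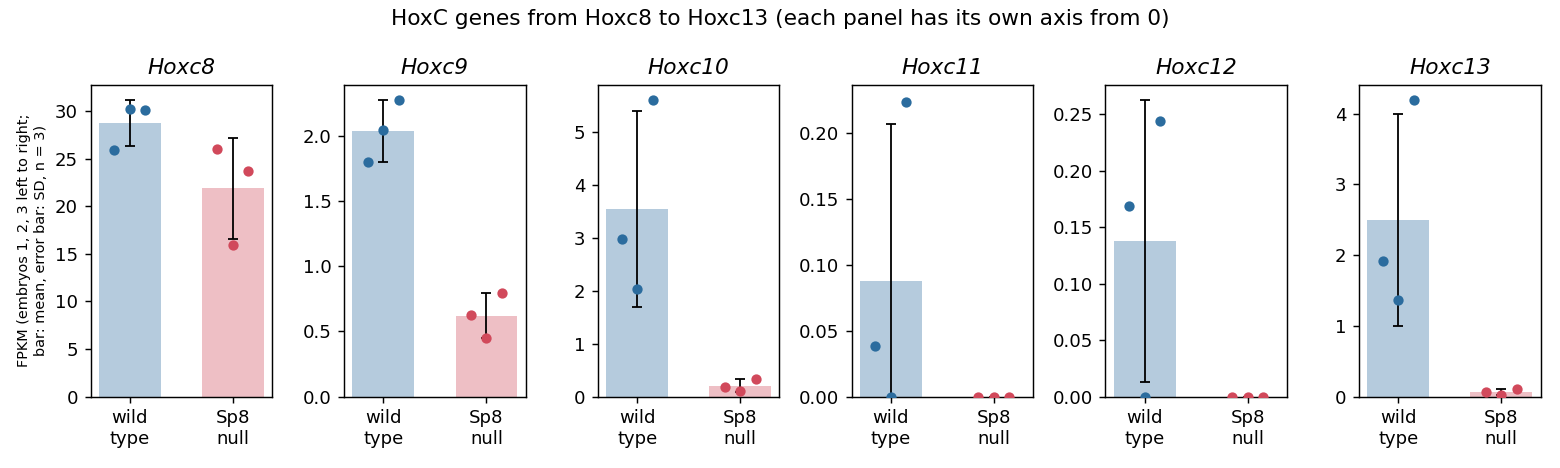
FPKM of the HoxC genes from Hoxc8 to Hoxc13 in 3 wild-type and 3 Sp8 null embryos, with bars at the mean and error bars of 1 SD (cut at 0 where they would go below it); points are embryos 1, 2 and 3 from left to right and every panel has its own axis. Hoxc8 overlaps between the genotypes, Hoxc9, Hoxc10 and Hoxc13 do not, and Hoxc11 and Hoxc12 are at 0 in all null embryos.

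The fall came beside lower levels of apical ridge transcripts, from genes active in the thickened ectoderm at the rim of the bud. In a list of 9 such genes, chosen after the values were seen, 6 of 7 tested members were called lower, and the summed level was 21.6 to 27.3 FPKM in null against 127 to 143 FPKM in wild type. In these bulk samples fewer cells of a type and less RNA per cell cannot be told apart, and the part of the ridge genes in the HoxC values was not tested. Within wild type, 4 of the 9 ridge genes were highest in embryo 1. Fgf4, a growth factor of the ridge, had 8.90, 9.73 and 12.1 FPKM in wild-type embryos 1, 2 and 3 and was highest in embryo 3, as were Fgf17, Sp8, Hoxc10 and Hoxc13. No other gene of the ridge list was highest in embryo 3. Fgf8, at 36.0, 31.3 and 30.2 FPKM, and Fgf9, at 13.3, 10.2 and 8.56 FPKM, were lowest there. So was the summed level of the ridge list, at 143, 139 and 127 FPKM. The hindlimb genes Pitx1 and Tbx4 were low throughout, with a summed level of 0.040 to 0.590 FPKM in null and 0.061 to 0.310 FPKM in wild type. Null embryo 2, the library richest in limb mesenchyme markers, had the lowest null value of all 3 genes. The mesenchyme covariate was the mean log2(FPKM + 1) of the 11 tested limb mesenchyme markers. With this covariate Hoxc9, Hoxc10 and Hoxc13 had log2 fold changes of -0.81, -1.86 and -1.67 (adjusted p = 0.0287, 0.0305 and 0.0438 in limma). Without null embryo 2 and wild-type embryo 1 the values were -0.89, -1.84 and -1.69, and Hoxc9 alone was called (adjusted p = 0.0448, 0.0603 and 0.0770 in limma).

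Toward the 3′ side of HoxC the fitted difference was smaller and then positive, with no call. Hoxc8 had 26.0, 15.9 and 23.7 FPKM in null embryos 1, 2 and 3, and null embryo 1 reached the range of wild type. Its log2 fold change was -0.40 (SE 0.17, with an adjusted p of 0.204 in limma). Hoxc6, a trunk and forelimb level gene, stood at 11.3, 7.40 and 11.2 FPKM in null embryos 1, 2 and 3, with the low value again in embryo 2 (log2 fold change -0.27 ± 0.16 SE, adjusted p = 0.350 in limma). Hoxc5 had 7.85, 6.66 and 6.59 FPKM in null and 7.50, 6.27 and 3.57 FPKM in wild type, where embryo 3 was lowest (log2 fold change 0.29 ± 0.22 SE, adjusted p = 0.471 in limma). Hoxc4, the most 3′ gene of the cluster, had 3.62, 4.15 and 4.18 FPKM in null against 3.20, 3.14 and 2.68 FPKM in wild type. The groups did not overlap for Hoxc4, yet the difference missed the threshold (log2 fold change 0.32 ± 0.10 SE, adjusted p = 0.117 in limma). From Hoxc4 to Hoxc10 the fold changes thus ran in chromosomal order from 0.32 to -1.84, with Hoxc13 at -1.63; this order is a description and was not tested. With a pseudocount of 0.1 Hoxc13 lay below Hoxc10, at -3.87 against -3.51. The 3′ values moved with single libraries. Hoxc5 came to 0.028 without wild-type embryo 3 and Hoxc6 to -0.093 and Hoxc8 to -0.20 without null embryo 2. With the mesenchyme covariate Hoxc6 and Hoxc8 came to -0.052 and -0.17, and without null embryo 2 and wild-type embryo 1 to -0.14 and -0.27.

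**Figure D3:**
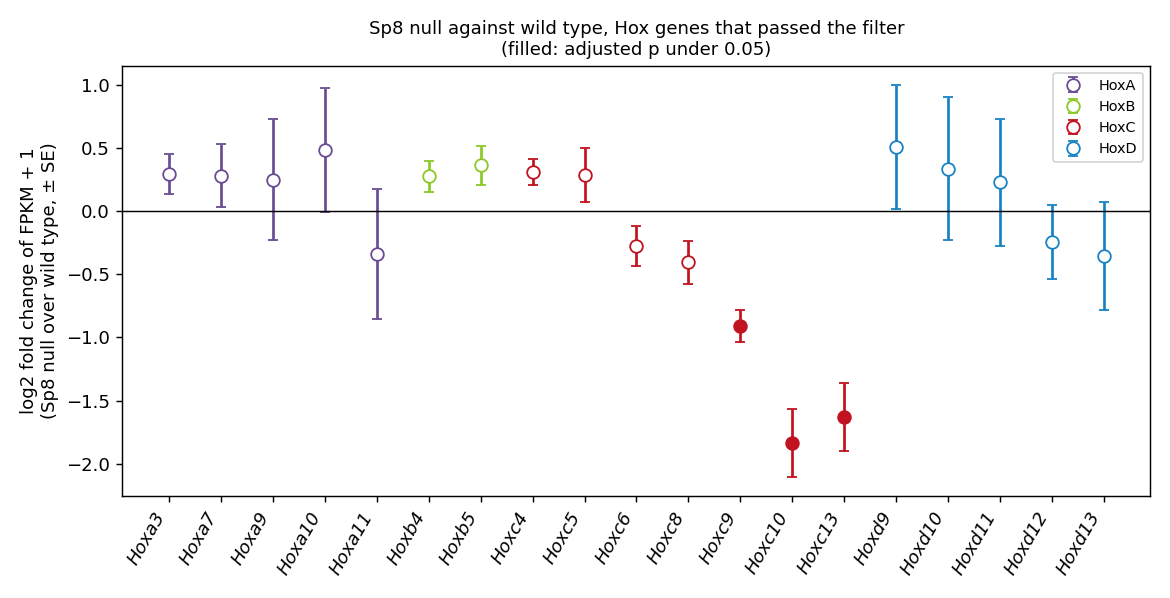
Log2 fold change of FPKM + 1, Sp8 null over wild type, with its SE, for Hox genes in the fit, ordered by cluster and paralogue number; filled points have a limma adjusted p under 0.05. HoxC runs from 0.32 at Hoxc4 to -1.84 at Hoxc10, and the error bars of HoxA and HoxD from 9 upward cross or come close to 0.

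The 3′ members of the other clusters had somewhat higher means in null ectoderm, and no call was reached with the deposited scaling. Of the 12 genes with paralogue numbers 1 to 4, HoxC included, 11 had a higher mean in null, against 4709 of 12133 tested genes and 2287 of the 4607 tested genes with a mean of 1 to 5 FPKM. These shares are over tested genes, and 8 of the 12 members were not tested. With median-of-ratios or upper-quartile scaling 2 members were called higher. Hoxc4 was among them (limma adjusted p = 0.0456 with the first and 0.0429 with the second). In the authors' deposited table Hoxc4 had a fold change of 1.34 (p = 0.000655).

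Hoxb5 had 2.19, 2.0 and 1.41 FPKM in null and 1.34, 1.40 and 0.922 FPKM in wild type, a narrow gap (log2 fold change 0.36 ± 0.15 SE, adjusted p = 0.197 in limma). Hoxb4 had 1.21, 1.09 and 1.42 FPKM in null and 0.701, 0.995 and 0.842 FPKM in wild type (log2 fold change 0.28 ± 0.12 SE, adjusted p = 0.220 in limma). Both genes sit near the level of the filter, and the highest wild-type embryo came close to the lowest null embryo in each. Hoxa3, with 1.42, 1.5 and 1.28 FPKM in null, overlapped the wild-type embryos at 1.30, 0.573 and 1.07 FPKM (log2 fold change 0.29 ± 0.16 SE, adjusted p = 0.314 in limma). Hoxa7, with 2.16, 2.86 and 1.02 FPKM in null and 1.81, 0.955 and 1.5 FPKM in wild type, overlapped fully (log2 fold change 0.28 ± 0.25 SE, adjusted p = 0.543 in limma). Without 1 library Hoxa7 ran from 0.080 (null embryo 2 left out) to 0.55 (null embryo 3 left out), and Hoxa3 was lowest, at 0.14, without wild-type embryo 2.

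Over all 39 members, tested or not, the groups did not overlap for 10. Of these, 7 are higher in null, and Hoxa5, Hoxb4, Hoxb5, Hoxb8, Hoxb9 and Hoxc4 are among them. The other 3 are Hoxc9, Hoxc10 and Hoxc13, which are lower. Among the 27766 genes with a value above 0 in some library, 7.47% were higher without overlap and 11.8% lower. Hoxa5, known for its role in lung and axial skeleton, was at 0.761, 0.690 and 0.506 FPKM in null against 0.474, 0.203 and 0.270 FPKM in wild type. Hoxb8 and Hoxb9 were nearly silent, at no more than 0.137 and 0.0939 FPKM. Under either other scaling Hoxa3 and Hoxd3 joined the higher members and the lower ones stayed the same 3. The summed level of the 12 genes with paralogue numbers 1 to 4 was 13.7, 13.4 and 12.7 FPKM in null embryos 1, 2 and 3 and 10.5, 8.32 and 8.40 FPKM in wild type, without overlap.

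Several of these 3′ genes share exons with others, and the use of strand in counting was not stated, so their values are uncertain. Hoxb3 shares 52.9% of its exon length with the antisense transcript Hoxb3os, and Hoxb2 27.3%. Hoxa7 shares 20.4% with the antisense transcript Hoxaas3. Hoxd3 and Hoxd4 overlap each other and the gene model Gm28230, and were listed at up to 0.186 and 0.238 FPKM. In the annotation no other gene shared exon sequence with Hoxc9, Hoxc13 or Hoxc4.

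For the 5′ genes of HoxA and HoxD, embryos of the same genotype were far apart. Of the 8 tested genes from paralogue 9 to 13, limma called 0, with 0 at an unadjusted p under 0.05, and the log2 fold changes ran from -0.35 to 0.51. The spread of log2(FPKM + 1) within genotypes had a median SD of 0.809 over these 8 genes, against 0.130 over all 12133 tested genes and 0.159 over those with a mean of 1 to 5 FPKM. For the 7 tested HoxC genes the median was 0.269 and for the 2 of HoxB 0.154. The SE of the 8 HoxA and HoxD fold changes lay between 0.29 and 0.57, against 0.13 for Hoxc9. Hoxa11 shares 35% of its exon length with the antisense transcript Hoxa11os.

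Hoxd10 shows the pattern. It had 1.22, 7.01 and 1.52 FPKM in null embryos 1, 2 and 3 and 4.06, 0.551 and 1.81 FPKM in wild-type embryos 1, 2 and 3. Null embryo 2 and wild-type embryo 1 were high, and the others lay below both (log2 fold change 0.34 ± 0.57 SE, adjusted p = 0.758 in limma). Hoxa11, required in the forearm segment, had 0.541, 4.05 and 0.978 FPKM in null and 4.76, 0.951 and 1.76 FPKM in wild type, high in the same embryos (log2 fold change -0.34 ± 0.52 SE, adjusted p = 0.732 in limma). Hoxd13, a gene of the digits, had 1.39, 2.85 and 0.582 FPKM in null and 4.36, 0.905 and 1.96 FPKM in wild type (log2 fold change -0.35 ± 0.43 SE, adjusted p = 0.660 in limma). Again null embryo 2 and wild-type embryo 1 led their groups.

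The other members had the same order. Hoxa9 had 0.941, 5.97 and 1.39 FPKM in null and 2.88, 0.926 and 1.56 FPKM in wild type. Hoxa10 had 1.81, 6.24 and 1.54 FPKM in null and 3.84, 0.633 and 1.36 FPKM in wild type. In both, null embryo 2 held the highest value of all 6 libraries. Hoxd9 had 0.774, 5.15 and 1.12 FPKM in null and 1.81, 0.270 and 1.24 FPKM in wild type. Hoxd11 had 1.49, 5.85 and 1.85 FPKM in null and 4.94, 0.785 and 1.85 FPKM in wild type. Null embryo 2 was again the highest library for both. Hoxd12 had 0.761, 1.75 and 0.481 FPKM in null and 2.07, 0.628 and 1.38 FPKM in wild type, the narrowest range of the HoxD genes from 9 upward. Hoxd8, which reached 1 FPKM in 2 libraries and was not tested, followed them with 3.12 FPKM in null embryo 2 and 1.58 FPKM in wild-type embryo 1.

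Null embryo 2 was the highest null library and wild-type embryo 1 the highest wild-type library for 9 of the 9 HoxA and HoxD genes from paralogue 9 to 13, an order noticed in the data. Among the 20 tested members this held for 10, of which 5 are in HoxA and 5 in HoxD, and for 0 of the 9 tested members of HoxB and HoxC. Over all tested genes it held for 16.2%. The summed level of the 9 genes was 8.92, 38.9 and 9.47 FPKM in null embryos 1, 2 and 3 and 30.0, 5.66 and 13 FPKM in wild-type embryos 1, 2 and 3. The limb mesenchyme markers had the same order of libraries: null embryo 2 was the highest null library for 15 of 15 and wild-type embryo 1 the highest wild-type library for 12 of 15. In the surface ectoderm list null embryo 2 had the lowest sum, 960 FPKM. Mesenchyme genes moved with these Hox genes, and their part in the levels was not tested.

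With the mesenchyme level as a covariate, Hoxa11 was called lower in null (log2 fold change -1.12; adjusted p = 0.0359 in limma). Hoxd12 and Hoxd13 came to -0.66 and -0.95 without a call (adjusted p = 0.0788 and 0.104 in limma). The direction of Hoxa9, Hoxa10, Hoxd9, Hoxd10 and Hoxd11 turned from higher to lower in that fit, with no call. Direction turned under at least 1 alternative for each of the 8 tested genes from 9 upward apart from Hoxd12. Without null embryo 2 and wild-type embryo 1 the fold changes of the 8 ran from -0.41 to 0.44, and 0 were called.

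Hoxa13, the last HoxA gene and a marker of the distal limb, was measured in effect in 1 library. It had 1.24 FPKM in wild-type embryo 1, 0.0119 and 0.0619 FPKM in wild-type embryos 2 and 3, and 0, 0.0408 and 0 FPKM in null embryos 1, 2 and 3. Wild-type embryo 2 lay below null embryo 2, so the groups overlapped, and the gene missed the filter. The authors' deposited table listed Hoxa13 at a wild-type mean of 40.23 and a null mean of 0.63, with a fold change of -1.11 and p listed at 0.

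**Figure D4:**
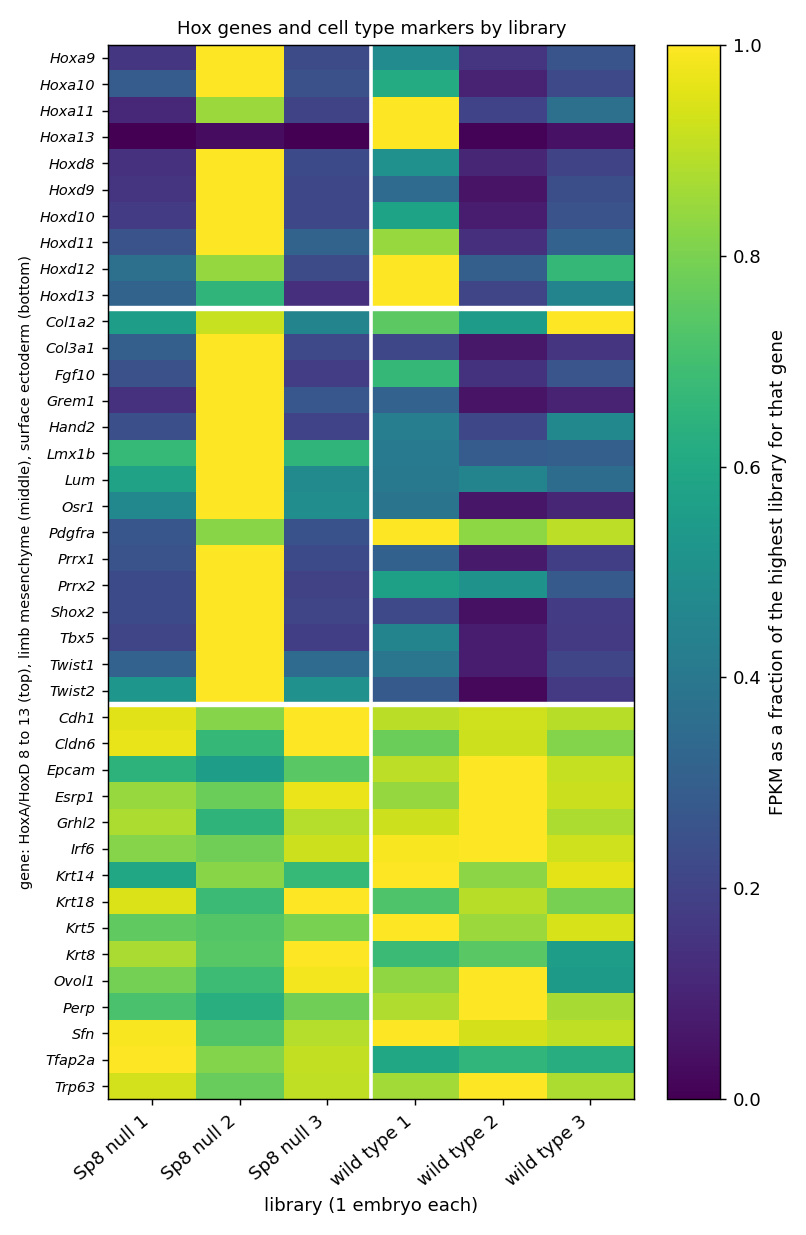
FPKM in each of the 6 libraries as a fraction of the highest library for that gene, for the 10 HoxA and HoxD genes from 8 to 13 (top), 15 limb mesenchyme markers (middle) and 15 surface ectoderm markers (bottom). In the top block the bright cells stand in the columns of Sp8 null embryo 2 and wild-type embryo 1, in the middle block mostly in that of Sp8 null embryo 2, and the ectoderm markers stay in the upper part of the scale in all libraries.

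Calls among partners and regulators of Hox proteins did not exceed the background share of 6.83%. Lists this small cannot show an absence of change. The TALE homeodomain proteins, such as those of the Meis and Pknox families, which bind DNA together with Hox proteins, had 0 of 8 tested members called by limma and 0 at an unadjusted p under 0.05, with a median log2 fold change of 0.09 against -0.06 over all tested genes. Mean Meis2 in the null group was 67.7 ± 6.92 FPKM, and the wild-type group had 57.7 ± 6.11 FPKM (SD, n = 3 each). Meis1, known as a marker of the proximal limb, was at 35.9 ± 6.11 FPKM in the first and 41.7 ± 3.80 FPKM in the second (SD, n = 3 each). Of 28 tested Polycomb and trithorax genes, which keep Hox genes off or on, 1 was called: Suz12, a subunit of the complex that methylates histone H3 at silent genes, fell from 33.1 ± 1.37 to 24.7 ± 2.03 FPKM (SD, n = 3 each; log2 fold change -0.41, adjusted p = 0.0269 in limma). Suz12 was called in 1 of the 6 fits without 1 library, that without null embryo 3, at log2 fold changes of -0.47 to -0.37. At an unadjusted p under 0.05 there were 3 of the 28 Polycomb and trithorax genes, all lower, against 24% of all tested genes. At 1 call in 28 the list was not above the background share of 6.83%. The ParaHox and Cdx genes, relatives outside the clusters, had no tested member. Cdx1, the caudal gene with the highest values among them, was listed at 0, 0.0448 and 0.0148 FPKM in null and at 0.151, 0.203 and 0.234 FPKM in wild type.

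Genes beside the clusters had 2 calls among 14 tested members, both higher. Of all tested genes 6.83% were called in either direction and 1.68% higher. Skap2, a neighbour on the 3′ side of HoxA, was at 40, 36.8 and 42.5 FPKM in null and 27.4, 25.9 and 24.5 FPKM in wild type (log2 fold change 0.60 ± 0.08 SE, adjusted p = 0.00634 in limma). Calcoco1, near the 5′ end of HoxC, was at 32.7, 34.0 and 36.9 FPKM in null and 29.1, 26.0 and 25.1 FPKM in wild type (log2 fold change 0.36 ± 0.08 SE, adjusted p = 0.0452 in limma). The groups stand apart for both genes. Skap2 was called in 6 of 6 fits without 1 library and Calcoco1 in 0 of 6. Evx1 and Evx2, the homeobox genes at the 5′ ends of HoxA and HoxD, were listed at 0 in all null embryos and at no more than 0.122 and 0.0397 FPKM in wild type. Of the noncoding transcripts within the clusters 3 could be tested, limma called 0, and 1 had an unadjusted p under 0.05. That was Hoxaas3, which had 1.33, 1.73 and 1.57 FPKM in null and 1.16, 0.680 and 0.631 FPKM in wild type (log2 fold change 0.49 ± 0.15 SE, adjusted p = 0.0969 in limma), and it overlaps Hoxa7 and Hoxa3.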

How the data were processed

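RNA of 6 libraries, 3 Sp8 null and 3 wild type by their labels, was read from 1 deposited table. The authors deposited FPKM per gene and library, with gene models of Ensembl build 87 per the file headers. TopHat2, Cufflinks, DESeq2, FastQC and SAMtools and the GRCm38 build are named, without roles, in the submitters' processing notes. The authors also deposited group means (a normalized signal on the scale of counts), a signed fold change (a score) and a p-value per gene; whether that p-value is adjusted is not given in the sources used here. These columns are quoted as the authors' deposited table and not tested.

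FPKM was analysed as log2(FPKM + 1) for the 12133 genes that reached 1 FPKM in 3 or more libraries. Genotype was the only term in the limma fit (version 3.58.1, R 4.3.3), which used a mean-variance trend, two-sided p-values, Benjamini-Hochberg adjustment over all tested genes and a threshold of 0.05. The fit was tested on simulated data with known changes. Fits that left out a library kept the same genes. The named genes were the 39 Hox genes, Sp8, members of related lists that were called, and cell type markers; Hotair, Cdx1, Evx1, Evx2, Hoxaas3 and the TALE genes were named after their values were seen. The apical ridge and hindlimb lists were added after the data were seen. Members and lists were chosen with earlier results of these data known.

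Coordinates, exons and homeobox sequences are from GENCODE M21 on GRCm38, which held 49109 of the 49452 identifiers. Depth is known only relative to wild-type embryo 1, from the smallest steps between low FPKM values, so no counting interval is given. No 2 libraries shared more than 1 gene with an equal value at 1 FPKM or more. Values of 2 genes are not reported here; they remain in the counts and sums.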

Additional observations from a re-analysis of the deposited data

How the results depend on the processing

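The number of Hox genes called lower, 3, was 1 when the filter was dropped (27766 genes in the fit), 0 with a mean of at least 5 FPKM required, where 3 Hox genes and none of the called ones were in the fit, and 2 to 3 when 1 library was left out. It was 1 without null embryo 2 and wild-type embryo 1, a setting chosen after seeing the data. The number called higher, 0, was 2 with median-of-ratios and 2 with upper-quartile scaling, and 0 to 0 when 1 library was left out. All genes called, 829, came to 342 with no filter, 545 with the first digit of the sample name, 4 or 5, as a covariate, 447 with the mesenchyme covariate, 316 to 642 when 1 library was left out, and, in settings chosen after seeing the data, 394 with no filter and a pseudocount of 0.1 and 325 without null embryo 2 and wild-type embryo 1. The embryo number as a replicate block gave 328 calls with the same 3 Hox genes lower. Same-numbered embryos did not deviate together (r across genes of -0.16, -0.14 and -0.07), so no pairing by number was seen. With 3 libraries per genotype these values cannot exclude a shared litter or batch. Of 340 alternative values of 21 genes, 313 kept direction and side of the threshold and 16 reversed, none of them called. With the mesenchyme covariate Hoxa7 came to -0.015, Hoxd9 -0.24, Hoxa10 -0.26, Hoxa9 -0.48, Hoxd10 -0.54 and Hoxd11 -0.52. Without null embryo 1 Hoxa11 came to 0.01; without null embryo 2 Hoxd9 came to -0.043, Hoxa9 -0.31, Hoxd10 -0.25 and Hoxd11 -0.22; without wild-type embryo 1 Hoxd13 came to 0.039 and Hoxa11 0.10; without wild-type embryo 2 Hoxd10 came to -0.09 and Hoxd11 -0.17; without null embryo 2 and wild-type embryo 1 Hoxa9 came to -0.043. Over the settings that left out 1 library Hoxa9 ran from -0.31 to 0.61, Hoxa10 from 0.008 to 0.92, Hoxa11 from -0.85 to 0.10, Hoxd9 from -0.04 to 0.85, Hoxd10 from -0.25 to 0.77, Hoxd11 from -0.22 to 0.70 and Hoxd13 from -0.71 to 0.04. The cause was not tested. Hoxc11, Hoxc12 and the other genes under 1 FPKM in every library could be fitted only with no filter. In that fit Hoxc11 and Hoxc12 had log2 fold changes of -0.12 and -0.18 and were not called (adjusted p = 0.585 and 0.389 in limma). Values this near the limit of detection give weak tests, and depth as the limit was not tested.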

Other observations

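The levels of the 5′ HoxA and HoxD genes were also set against mesenchyme genes of the same library, a look chosen after the values were seen and given as values without a test. Prrx1, Tbx5 and Shox2, transcription factors of limb mesenchyme, served as references, and the ratio of FPKM was taken for the 10 HoxA and HoxD genes from 8 to 13. The ratio of Hoxa11 to Tbx5 was 0.185, 0.290 and 0.380 in null embryos 1, 2 and 3. In wild type it was 0.759, 0.861 and 0.744 in the same order of numbers. The raw level of Hoxa11 differed several-fold between embryos of 1 genotype, whereas these ratios to Tbx5 lay close together within wild type and apart from those of the null embryos. With the other references the wild-type ratios of Hoxa11 were spread more widely. They were 0.289, 0.243 and 0.178 to Prrx1 and 0.606, 0.601 and 0.282 to Shox2, still above every null embryo. For Hoxd13 the ratio to Tbx5 was 0.475, 0.204 and 0.226 in null and 0.695, 0.819 and 0.828 in wild type.

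The ratio was lower in every null embryo than in every wild-type embryo for 9 of 10 genes against Prrx1, 4 of 10 against Tbx5 and 9 of 10 against Shox2. Over all 12133 tested genes the same order was seen for 8.28%, 1.55% and 42.9%, so with Shox2 it is common. The 4 genes with this order against all 3 references were Hoxa11, Hoxa13, Hoxd12 and Hoxd13, and for Hoxa13 it rests on values near 0. Of the 11 tested mesenchyme markers, 8 had a positive and 3 a negative fold change. Pdgfra was lower in null without overlap, with means of 10.6 against 21.6 FPKM. Ratios to markers other than the 3 references were not taken, so the order is given for these references alone. Since the means of Prrx1, Tbx5 and Shox2 were themselves higher in null (26.3 against 10.1, 6.48 against 3.25 and 17.2 against 5.24 FPKM, with overlapping groups), a lower ratio does not show by itself which of the 2 genes changed.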
